A study of Mus musculus with 6 samples.

Results

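A group of 10 genes of matrix proteolysis was followed across 6 RNA-seq libraries of expanded mouse chondrocytes. They are 4 matrix metalloproteinases (Mmp2, Mmp3, Mmp9 and Mmp14), 3 ADAMTS proteases (Adamts1, Adamts4 and Adamts5) and 3 tissue inhibitors of metalloproteinases (Timp1, Timp2 and Timp3). The 10 members were taken by gene symbol from a table of 35976 genes, and each passed the filter on low counts that left 13761 genes to test. The cells were embryonic chondrocytes of the hind limb articular cartilage, taken at embryonic day 18.5 from mice of the strain C57BL/6 x 129S4/SvJae, and grown on tissue culture plastic for 16 population doublings. Both groups received doxycycline at 2 µg/ml throughout, which induced a histone H3.3 transgene. In the H3K9M group (replicates 1, 3 and 5) the transgene was the lysine-to-methionine mutant, and these cells are labelled as having suppressed H3K9 methylation. In the H3WT group (replicates 1, 2 and 4) it was wild-type H3.3. The comparison of the groups asks which transcripts differ when H3K9 methylation is suppressed during expansion. Values of single libraries are given below in the order of these replicates. The promoter that drives the transgene, and whether a library came from 1 embryo or several, are not given in the sources used here.

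Matrix metalloproteinases and ADAMTS proteases are zinc-dependent enzymes that cut the proteins between cells. They are made as inactive proenzymes and are blocked, once active, by the TIMP proteins, so the levels of enzyme and inhibitor are often read together. In cartilage, Adamts4 and Adamts5 are known as aggrecanases, which cut the proteoglycan aggrecan, while the metalloproteinases act on collagens and on other matrix proteins and proenzymes. Timp3 differs from the other inhibitors in that it binds to the matrix and also blocks ADAMTS proteases. Messenger RNA levels do not measure latent or active enzyme.

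Libraries held 15113675 to 19606082 counts, and the 10 genes took 0.593% to 0.932% of them. On the first principal component of all tested genes, which held 35.5% of the variance, H3K9M replicate 3 (51) was next to H3WT replicate 2 (49.1), and H3WT replicates 1 and 4 lay at -56.2 and -51.5. On the second, with 28.8% of the variance, the groups were separate (19 to 39.8 for H3K9M, -71.5 to -11.4 for H3WT), and the same 2 libraries lay farthest apart. All 10 chondrocyte markers found in the table, of 12 searched, passed the filter. Their summed level was 7298 to 11396 CPM (counts scaled to library size by TMM) in H3K9M libraries and 7189 to 18812 CPM in H3WT libraries. Of the macrophage markers, 4 of 10 (Adgre1, Ptprc, Tyrobp and Itgam) had 0 counts in every library, as had 2 of 8 osteoclast markers (Calcr and Dcstamp), 4 of 6 neutrophil markers and 3 of 6 endothelial markers. The 7 skeletal muscle markers summed to 26.9 to 232.2 CPM in H3K9M and 13.2 to 32 CPM in H3WT. For 5 of them (Myog, Myod1, Des, Myh3 and Tnnt3) every H3K9M library lay above every H3WT library, against 10.7% of all tested genes. Myog did not pass the filter, and H3K9M replicate 5 held 4 counts of it against 0 in each H3WT library. Of the 5 muscle markers tested, 4 had an unadjusted p under 0.05 (edgeR), against 12.2% of all tested genes. The 3 tendon markers summed to 93.6 to 118.2 CPM in H3K9M and 57.6 to 85.4 CPM in H3WT, without overlap, mostly through Scx. Tnmd overlapped between the groups. Mkx went the other way, with 7.92 to 9.13 CPM in H3K9M and 9.84 to 13.9 CPM in H3WT. Fibroblast markers (7) summed to 11846 to 29875 CPM and 9858 to 34484 CPM. Their part in the results on proteolysis was not tested.

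None of the 10 genes passed an adjusted p of 0.05 (edgeR quasi-likelihood test, Benjamini-Hochberg adjustment over 13761 genes). Nor did any other gene, a background of 0%. With limma-voom the count over all genes was also 0, and with DESeq2 it was 367, of which Mmp3 was the 1 member. At an unadjusted p under 0.05 there were 2 of the 10, Mmp3 (lower in H3K9M) and Timp1 (higher), against 12.2% of all tested genes. By direction the backgrounds were 5.77% lower and 6.42% higher. The same 2 genes were those whose groups did not overlap, against 19.4% of all tested genes (8.68% with all H3K9M libraries below and 10.7% with all above). A difference of at least 2-fold was fitted for 3 of the 10, Mmp3, Adamts1 and Adamts5, and for 9.30% of all tested genes. The median log2 fold change, H3K9M minus H3WT, was -0.25 over the 10 genes and -0.003 over all tested genes, and 8 of the 10 values were below 0, as were 50.4% of all. With 10 genes these counts do not set the group apart from the background.

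**Figure D1:**
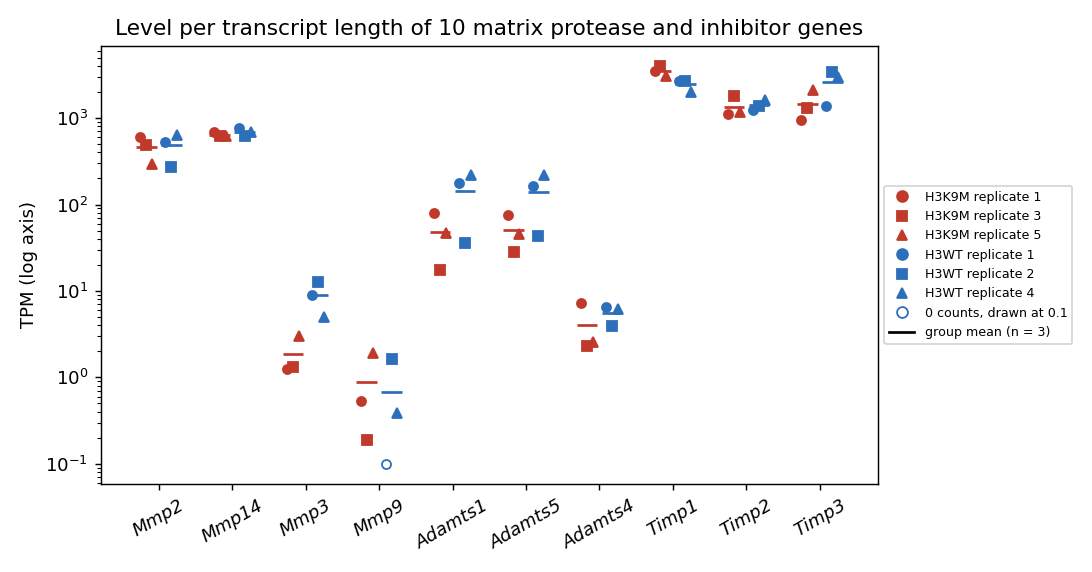
Level of each gene as TPM (log axis) in the 3 H3K9M (red) and 3 H3WT (blue) libraries, with group means as lines. The inhibitors lie highest, from 953.5 to 4019 TPM, and only Mmp3 and Timp1 have groups that do not overlap.

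Levels were compared between genes as TPM, transcript abundance after division of counts by transcript length. Timp1 was the most abundant, with a mean of 2983 TPM over the 6 libraries, and it ranked 24 among all genes with a known length. Timp3 (2020 TPM) and Timp2 (1382 TPM) followed. The order of these 3 was not fixed, since Timp1 lay above Timp3 in 4 of 6 libraries and Timp3 above Timp2 in 4 of 6. Below them came Mmp14 (663.4 TPM), the membrane-anchored metalloproteinase known to activate pro-Mmp2, and then its substrate Mmp2 (471.5 TPM). Mmp14 lay above Mmp2 in 6 of 6 libraries, although their ranges overlapped (613.5 to 763 and 272.4 to 643.6 TPM). Adamts5 and Adamts1 had almost the same mean, 95.6 TPM each, and could not be ordered. Mmp3 (5.41 TPM) and Adamts4 (4.77 TPM) exchanged places in 3 of 6 libraries, and Mmp9 was lowest at 0.778 TPM. The 3 inhibitors together held 3.22 to 7.55 times the summed TPM of the 7 proteases.

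The sequences upstream of 3 members are shown because Mmp3 and Timp1 were the 2 genes with separate groups and Adamts1 the one with the widest spread among the well-expressed members. They are the 250 bases before the RefSeq start site (GRCm38.p6), written 5′ to 3′ on the strand of the gene, and no annotated exon of GENCODE M21 lies in them. Capitals mark matches to a searched motif.
Mmp3, chr9:7445572-7445821, plus strand: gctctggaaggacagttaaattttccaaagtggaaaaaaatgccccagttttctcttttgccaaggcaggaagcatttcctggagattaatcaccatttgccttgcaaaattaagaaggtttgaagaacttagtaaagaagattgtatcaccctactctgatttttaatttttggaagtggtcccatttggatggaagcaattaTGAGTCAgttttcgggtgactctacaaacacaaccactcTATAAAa
Adamts1, chr16:85803114-85803363, minus strand: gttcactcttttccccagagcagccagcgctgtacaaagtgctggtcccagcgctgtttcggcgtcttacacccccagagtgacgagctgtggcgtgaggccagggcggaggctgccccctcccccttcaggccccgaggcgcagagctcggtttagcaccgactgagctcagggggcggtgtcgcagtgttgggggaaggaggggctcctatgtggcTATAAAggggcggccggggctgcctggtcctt
Timp1, chrX:20869916-20870165, plus strand: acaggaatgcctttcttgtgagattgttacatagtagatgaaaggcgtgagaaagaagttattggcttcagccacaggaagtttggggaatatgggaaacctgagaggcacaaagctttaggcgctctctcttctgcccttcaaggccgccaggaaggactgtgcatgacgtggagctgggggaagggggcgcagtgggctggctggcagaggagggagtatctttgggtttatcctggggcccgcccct

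The Mmp3 stretch holds an AP-1 motif (TGANTCA, found as TGAGTCA) whose first base lies at position -46 from the start site, and a TATA box (TATAAA) at -7. AP-1 motifs occurred on either strand in 7.81% of 32851 RefSeq promoters of 300 bases (250 before and 50 after the start), and TATA boxes in 13.6%. Adamts1 holds a TATA box at -32. Timp1 held none of the 4 motifs searched, which also included RUNX (TGTGGT, 16.8% of promoters) and NF-kB (GGGANTTCC, 1.68%). Of the 6 members with a RefSeq promoter entry, Mmp14 had a RUNX match at -114 on the opposite strand, and Timp2 and Timp3 held no match. The Mmp3 stretch was poor in G and C (37.6%) with 1 CpG dinucleotide, against 65.6% and 15 for Adamts1 and 54.4% and 6 for Timp1. A match is a string of letters in this window and was not measured as a binding site.

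Mmp3, or stromelysin-1, is a secreted metalloproteinase that cuts aggrecan and activates other proenzymes. The gene lies on chromosome 9 from 7445822 to 7455975 (GRCm38, plus strand). The H3K9M libraries gave it 12, 16 and 37 counts and the H3WT libraries 97, 147 and 51. All 3 H3K9M libraries lay below all 3 H3WT libraries, with H3K9M replicate 5 nearest to H3WT replicate 4. Mean levels were 1.15 ± 0.635 CPM with the mutant and 5.36 ± 2.31 CPM with wild-type H3.3 (SD, n = 3 each). This is a log2 fold change of -2.20 (95% interval -3.56 to -0.84, SE 0.59, unadjusted p 0.00567, adjusted p 0.239, edgeR), a 4.61-fold lower level in H3K9M that did not pass the correction. With DESeq2 the adjusted p was 0.0237. Over the fits that left out 1 library the log2 fold change ran from -2.75 to -1.85. Few molecules stand behind these values, and 1 annotated gene, Gm15242, shares at least 90% identity with Mmp3 over 200 or more bases, so reads could be shared.

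Mmp9, gelatinase B, is best known from osteoclasts and leukocytes. Only 9, 4 and 41 counts were found in the H3K9M libraries, and 0, 33 and 7 in the H3WT libraries. The groups overlapped over their whole range, and 1 library of each group held most of its reads. A count of 0 in H3WT replicate 1 allows a level of up to 0.168 CPM (3 counts, counting error only). Its log2 fold change was 0.43 with a 95% interval of -2.84 to 3.71 (adjusted p 0.934, edgeR), so neither direction could be read at this depth. The osteoclast list holds Mmp9 itself. Of its other 7 markers Calcr and Dcstamp had 0 counts in every library, while Nfatc1, which made up most of the summed level, had 1115 to 6079 counts and Acp5 33 to 228. Atp6v0d2 (38 counts) and Ocstamp (8 counts) were found in H3K9M replicate 3 alone, where Mmp9 had 4 counts. Oscar had 0, 12 and 0 counts with the mutant and 9, 0 and 2 with wild-type H3.3. The libraries highest in Mmp9 were H3K9M replicate 5 and H3WT replicate 2. Of the 4 macrophage markers that passed the filter, Cd68 had 93 and 65 counts in these libraries (range over all libraries 11 to 265). Csf1r had 67 and 0 (range 0 to 67), Cd14 44 and 187 (range 21 to 187) and Lyz2 19 and 9 (range 9 to 35). These markers thus did not share 1 pattern. Their part in the Mmp9 values was not tested.

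Mmp2, gelatinase A, cuts denatured collagen and basement membrane proteins. The H3K9M libraries held 650.3, 485.5 and 308.1 CPM, and the H3WT libraries 554.9, 276.8 and 661.3 CPM. High and low libraries occurred in both groups. The difference was -0.05 on the log2 scale (edgeR adjusted p 0.976, SE 0.38), and the 95% interval of the ratio of H3K9M to H3WT was 0.522 to 1.79. Mmp14 was the steadiest of the 10 genes. Its levels were 780.4, 640.5 and 683.7 CPM with the mutant and 834.1, 666.7 and 737.8 CPM with wild-type H3.3, a range of 1.30-fold over the 6 libraries. The log2 difference was -0.09 (edgeR adjusted p 0.855, SE 0.14), and the 95% interval of the ratio, 0.748 to 1.18, was narrower than that of Mmp2.

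Adamts1 and Adamts5 are neighbours on the minus strand of chromosome 16, at 85793827 to 85803113 and 85856173 to 85901828 (GRCm38). They lie 53059 bases apart, and the 1 annotated gene between them had 0 counts in every library. Adamts5 is regarded as the main aggrecanase of mouse cartilage, and Adamts1 cuts aggrecan and versican. Levels of Adamts1 were 137.8, 27.3 and 79.3 CPM in the H3K9M libraries, and 290.4, 57.5 and 353.9 CPM in those of H3WT. Those of Adamts5 were 288.3, 99.3 and 170.7 CPM against 595.9, 153.4 and 780.4 CPM. For both genes H3WT replicates 1 and 4 were highest and H3K9M replicate 3 was lowest, but H3WT replicate 2 lay within the H3K9M libraries, so the groups overlapped. The levels of the 6 libraries spanned 12.9-fold for Adamts1 and 7.86-fold for Adamts5. Their ratio in TPM lay between 0.609 (H3K9M replicate 3) and 1.08. The summed fibroblast markers were 29875, 11846 and 22979 CPM with the mutant and 34484, 9858 and 24079 CPM with wild-type H3.3. The sum was lowest in H3K9M replicate 3 and H3WT replicate 2, as were both Adamts genes. Most of it was Col1a1, Col1a2 and Col3a1, which like Thy1 were also lowest in these libraries. Pdgfra (236.3 and 242.8 CPM), Dcn (177.3 and 142.8 CPM) and Lum (143.6 and 100.6 CPM) were instead highest there. The 6 osteoblast markers summed to 75.2, 47.6 and 68.7 CPM with the mutant and 120, 51.5 and 98.3 CPM with wild-type H3.3. Like both Adamts genes, this sum was highest in H3WT replicates 1 and 4 and lowest in H3K9M replicate 3. Most of it was Runx2 (log2 fold change -0.09). Ibsp (-2.13) and Sp7 (-1.28) were lower and Dmp1 (0.71) higher. Unadjusted p was under 0.05 for 2 of 5 tested (edgeR), against 12.2% of all tested genes. The part of fibroblast and osteoblast markers in the Adamts values was not tested.

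**Figure D2:**
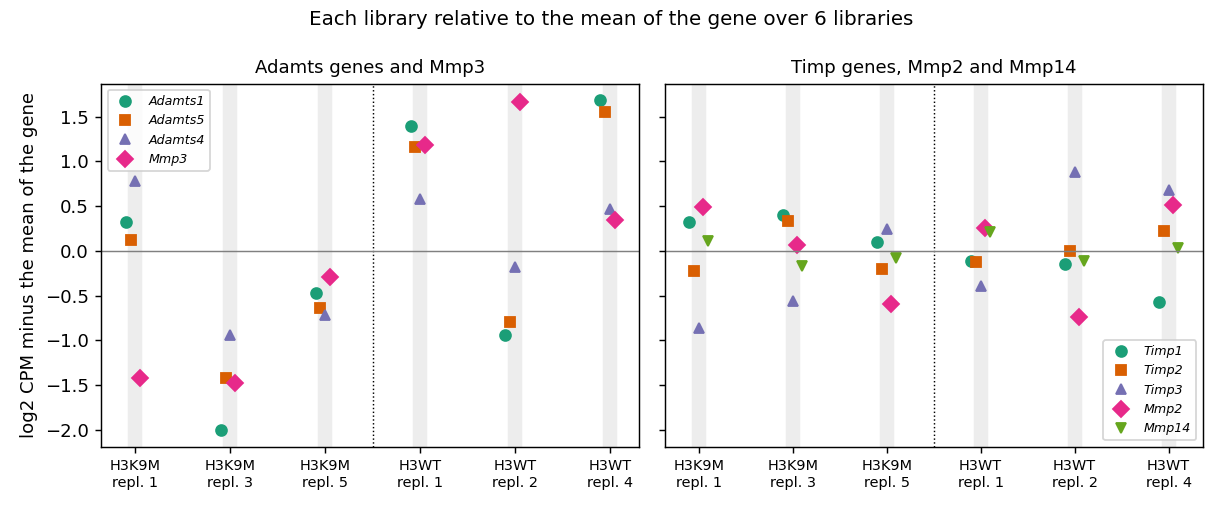
Each library's log2 CPM minus the mean of that gene over the 6 libraries, for the Adamts genes and Mmp3 (left) and for the Timp genes, Mmp2 and Mmp14 (right). The points of Adamts1 and Adamts5 lie near each other, as at 1.68 and 1.56 in H3WT replicate 4, except in H3K9M replicate 3, where Adamts1 is lower than Adamts5 (-1.42), while Mmp14 stays near 0.

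Adamts1 had a log2 fold change of -1.52 (edgeR adjusted p 0.496, SE 0.81), and Adamts5 one of -1.45 (edgeR adjusted p 0.444, SE 0.66). The 95% intervals, -3.49 to 0.44 and -3.05 to 0.14, both reached past 0. These differences depended on which libraries were compared. Without H3WT replicate 2 the groups no longer overlapped, as was so for 37.4% of all tested genes in that fit. That library was the one through which these groups had overlapped. The values were then -1.98 for Adamts1 and -1.88 for Adamts5 (adjusted p 0.218 and 0.13, edgeR). Without H3K9M replicate 3 they were -1.10 and -1.14. Without both libraries they were -1.56 and -1.57, and each passed with an adjusted p of 0.0412 (edgeR, 2 libraries a group, 302 genes past the threshold in all). The pair was left out because it lay together on the first principal component, though not on the second, and this alternative was planned with earlier results known. From low to high on that component came H3WT replicates 1 and 4, H3K9M replicates 1 and 5, H3WT replicate 2 and H3K9M replicate 3. The levels of Adamts1, from high to low, stand in the same order apart from the first pair, whose places are exchanged.

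Adamts4, the other aggrecanase, was expressed far below Adamts5. Its levels were 11.1, 3.29 and 3.88 CPM with the mutant, and 9.66, 5.66 and 8.95 CPM with wild-type H3.3. H3K9M replicate 1 held the highest value of all, and the groups overlapped. A log2 fold change of -0.41 was fitted (edgeR adjusted p 0.794, SE 0.50), which was -1.17 without H3K9M replicate 1, -0.10 without H3K9M replicate 3 and -0.16 without H3K9M replicate 5. The strand setting of the counting is not given in the sources used here, so the low counts of Adamts4 (68 to 172) may hold reads of either strand and are uncertain.

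Timp1, a secreted inhibitor of most metalloproteinases, lies on chromosome X from 20870166 to 20874735 (GRCm38, plus strand). The H3K9M libraries held 1083, 1144 and 924.9 CPM, and the H3WT libraries 802.1, 784.5 and 582.4 CPM. Each H3K9M library lay above each H3WT library, and the nearest were H3K9M replicate 5 and H3WT replicate 1. The means were 1051 ± 113 CPM and 723 ± 122 CPM (SD, n = 3 each), a ratio of 1.45. On the log2 scale the difference was 0.54 (95% interval 0.15 to 0.92, SE 0.17, unadjusted p 0.0121, adjusted p 0.28, edgeR), and the correction was not passed. Leaving out 1 library at a time gave values from 0.41 to 0.63.

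The difference in Timp1 was smaller when transcript length and GC content were taken into account. Its longest transcript has 883 bases, the shortest of the 10, against 10791 bases for Adamts5. With an offset fitted on length and GC content in each library the log2 fold change was 0.29 (unadjusted p 0.0986, edgeR), and Timp1 no longer counted among the genes with separate groups. Every library held reads of Xist and of the Y-linked gene Ddx3y. Xist had 1345, 8412 and 2330 counts with the mutant and 998, 6309 and 6905 with wild-type H3.3. Ddx3y had 1074, 727 and 1463 counts with the mutant and 1424, 591 and 782 with wild-type H3.3. Their balance thus varied between libraries within each group, and its part in the results was not tested. Timp1 lies within a gene on the opposite strand, Syn1, with no shared exon, and the strand setting of the counting is not known. Syn1 had 333, 728 and 444 counts with the mutant and 146, 223 and 146 with wild-type H3.3, so its groups were separate in the same direction as those of Timp1. The part of Syn1 reads in the Timp1 values was not tested.

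Timp2, which inhibits Mmp2 and also takes part in its activation by Mmp14, also varied little between libraries. Its levels were 1457, 2139 and 1479 CPM with the mutant and 1557, 1694 and 1982 CPM with wild-type H3.3, and H3K9M replicate 3 was highest. The log2 difference was -0.04 (edgeR adjusted p 0.954, SE 0.19), and the 95% interval of the ratio was 0.713 to 1.32. The 3 genes that act together in this activation step, Mmp2, Mmp14 and Timp2, thus had the 3 log2 fold changes nearest to 0. Their TPM ratios within a library overlapped between the groups, from 0.197 to 0.538 for Mmp2 to Timp2 and from 0.343 to 0.614 for Mmp14 to Timp2.

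Timp3 stood at 1590, 1968 and 3439 CPM in the H3K9M libraries, and at 2198, 5338 and 4650 CPM in those of H3WT. H3WT replicates 2 and 4 were highest, but H3WT replicate 1 lay below H3K9M replicate 5. Its log2 fold change was -0.80 (95% interval -1.73 to 0.13, SE 0.40, edgeR adjusted p 0.46). It was -0.54 without H3WT replicate 2, -1.10 without H3WT replicate 1 and -1.18 without H3K9M replicate 5, and with DESeq2 the unadjusted p was 0.0131 (adjusted p 0.208). The libraries richest in Timp3 were also richest in chondrocyte markers, whose summed level was 18812 CPM in H3WT replicate 2, 13325 CPM in H3WT replicate 4 and 11396 CPM in H3K9M replicate 5, against 7189 to 7624 CPM in the other libraries. Most of this sum was Col2a1 (14110, 9904 and 8421 CPM in those 3 libraries), and some markers stood otherwise, such as Comp, which was lowest in H3K9M replicate 5 (530.4 CPM), and Matn3, which was lowest in H3WT replicate 4 (1.41 CPM). The part of chondrocyte content in the Timp3 values was not tested, and in bulk RNA fewer cells of a type and less RNA per cell cannot be told apart. Reads of Syn3, which shares an exon region with Timp3 on the opposite strand, came to at most 22 counts.

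**Figure D3:**
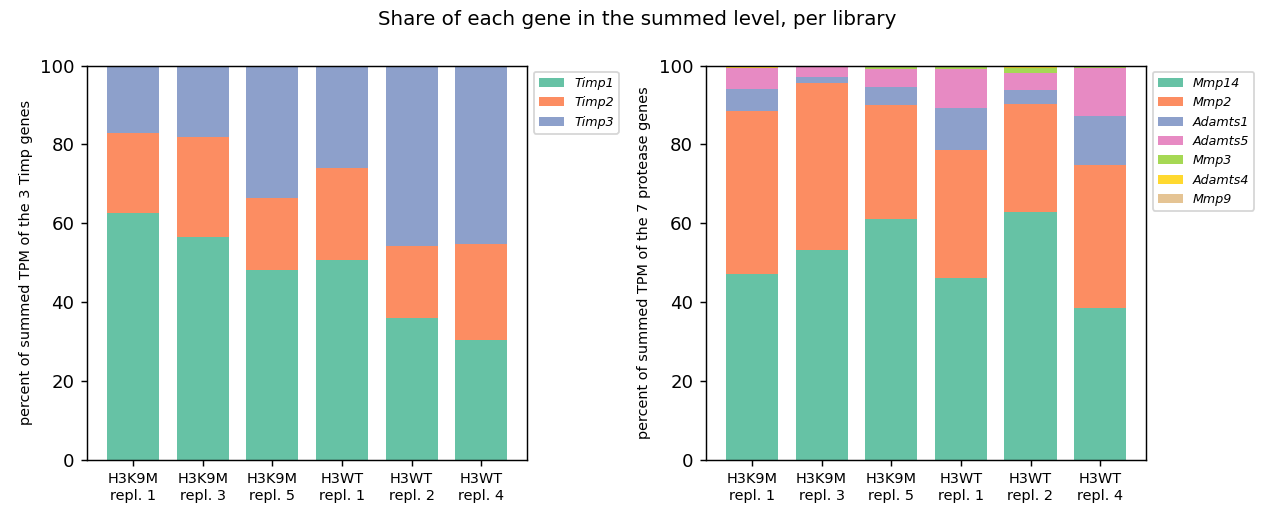
Percent of the summed TPM of the 3 Timp genes (left) and of the 7 protease genes (right) held by each gene in each library. Timp1 takes 48.2% to 62.7% of the Timp total in H3K9M and 30.3% to 50.6% in H3WT, and Mmp2 with Mmp14 makes up most of the protease total in every library.

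Summed over the 3 inhibitors, TPM came to 6323 ± 781 in H3K9M and 6447 ± 1096 in H3WT (SD, n = 3 each, exact permutation test over libraries, two-sided p 0.9). The shares of the 3 genes in that sum varied between libraries. Timp1 held 62.7%, 56.6% and 48.2% of it with the mutant, and 50.6%, 35.9% and 30.3% with wild-type H3.3. Timp3 held 17.2%, 18.2% and 33.5% against 26%, 45.7% and 45.2%. The share of Timp1 was 55.8% ± 7.29 in H3K9M and 38.9% ± 10.5 in H3WT (exact permutation test, two-sided p 0.2), and the groups overlapped through H3K9M replicate 5 and H3WT replicate 1. The ratio of Timp1 to Timp2 was higher in each H3K9M library (2.25 to 3.12) than in each H3WT library (1.23 to 2.16). Its exact permutation p of 0.1 is the smallest that 3 libraries against 3 allow, and it was 0.7 after adjustment over the 7 ratios computed. For the 7 proteases the sum was 1202 ± 223 TPM in H3K9M and 1472 ± 419 TPM in H3WT (exact permutation test, two-sided p 0.4). Mmp14 gave 38.5% to 62.8% of this sum, and the aggrecanase Adamts5 2.48% to 12.2%.

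**Figure D4:**
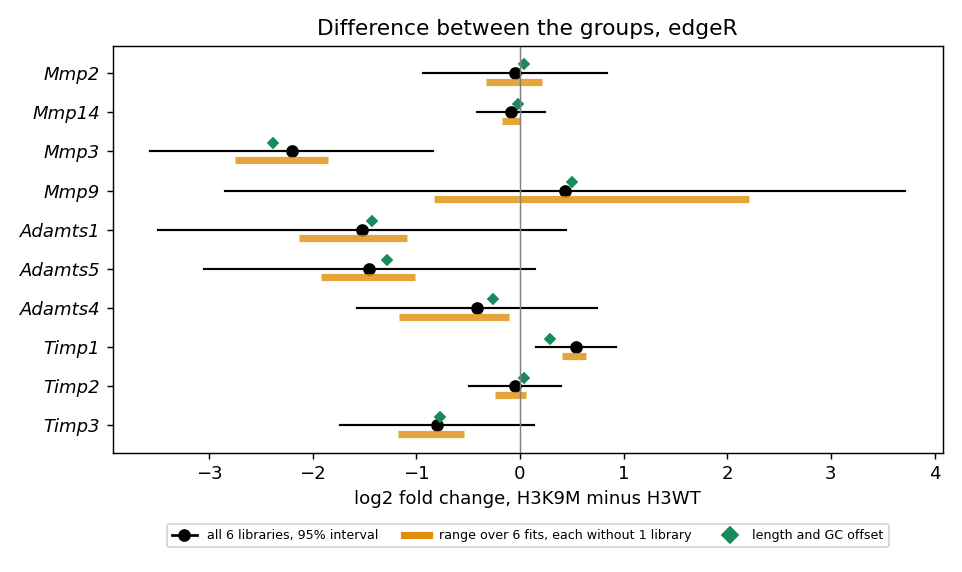
Log2 fold change of H3K9M minus H3WT for each gene (black point) with its 95% interval, the range over 6 fits that each left out 1 library (orange), and the value with a length and GC offset (green). The intervals of Mmp3 and Timp1 lie to one side of 0, and the orange ranges of Mmp2, Mmp9 and Timp2 span 0.

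For each member the tested gene with the most similar profile was sought, by the root mean square difference of centred log2 CPM over the 6 libraries. For Mmp2 this was Plau, the urokinase-type plasminogen activator, at 0.09. Adamts1 was nearest to F3, the gene of tissue factor, at 0.15, and Adamts5 to Jag1, a Notch ligand, at 0.15. Adamts1 and Adamts5 were each other's nearest member at 0.29, and only 6 and 12 of all tested genes lay closer to them. For each other member at least 343 genes lay closer than the nearest member, and for Timp3 it was Timp2 at 0.64, with 3704 genes closer. Mmp3 was nearest to Ildr2 (0.33), Mmp9 to Gm13415 (0.43), Adamts4 to Kcnj15 (0.18) and Timp3 to LOC108168263 (0.15). Mmp14, Timp1 and Timp2 were nearest to Lman2, Zfp462 and Ephx1 at 0.04, 0.04 and 0.03. The distances are not scaled to the spread of a gene, so genes that vary little lie near many others. The SD of log2 CPM was 0.133, 0.325 and 0.21 for Mmp14, Timp1 and Timp2, and 1.29 and 1.07 for Adamts1 and Adamts5. Distances and counts of closer genes are thus not comparable between members.

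Other genes of matrix proteolysis were then described in 8 lists with 138 genes, of which 104 were tested. None passed an adjusted p of 0.05 (edgeR). At an unadjusted p under 0.05 there were 23 of the 104 (22.1% against 12.2% of all tested genes), 8 higher and 15 lower in H3K9M. Of these 23, 8 passed an adjusted p of 0.05 with DESeq2 and 0 with limma-voom. The groups did not overlap for 17 of the 104 (16.3%), against 19.4% of all tested genes. The first share lies above its background and the second below, and the lists were not tested as sets.

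**Figure D5:**
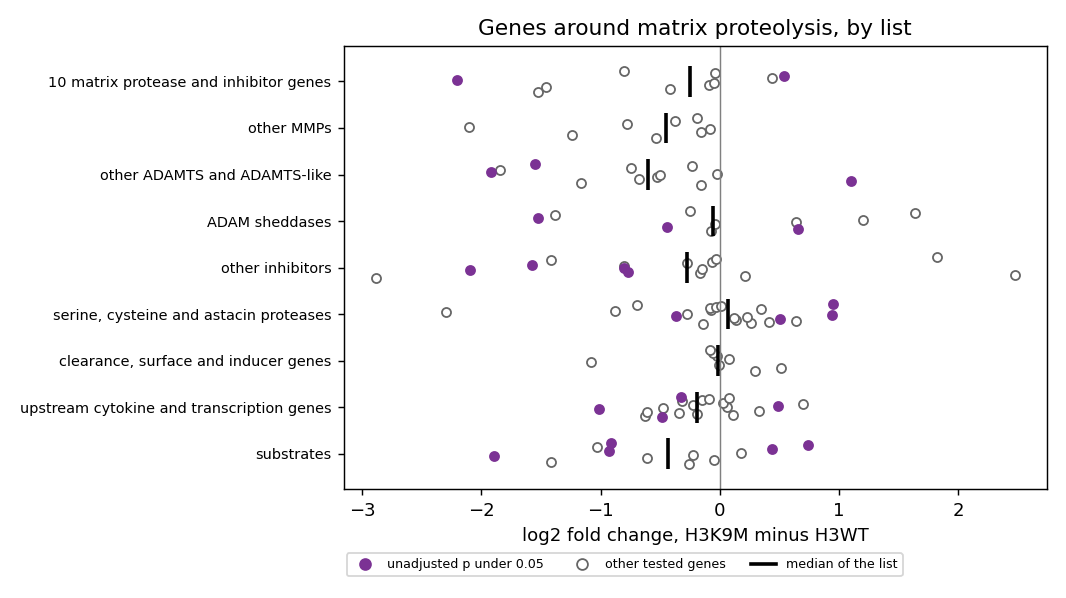
Log2 fold change of every tested gene in the 10-gene group and in 8 further lists, with filled points for an unadjusted p under 0.05 and bars for list medians. The medians run from -0.60 (other ADAMTS and ADAMTS-like genes) to 0.07 (serine, cysteine and astacin proteases).

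Among 19 other metalloproteinase genes, 7 had 0 counts in every library and 8 were tested. All 8 had log2 fold changes below 0, as had 50.4% of all tested genes. Their median was -0.45 against -0.003 over all tested genes, and 0 of the 8 had an unadjusted p under 0.05 (edgeR). The collagenase of cartilage in this list, Mmp13, was singled out after its values were seen. Its levels were 25.4, 14.9 and 10.2 CPM with the mutant, and 43.2, 15.8 and 59.7 CPM with wild-type H3.3, the groups overlapping through H3WT replicate 2. Its log2 fold change was -1.24 (edgeR adjusted p 0.414, SE 0.53). H3WT replicates 1 and 4 were highest in Mmp13, as in Adamts1 and Adamts5.

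Of 22 other ADAMTS and ADAMTS-like genes 12 were tested, with a median of -0.60. Of these 12, 11 had values below 0, against 50.4% of all tested genes. Adamtsl5, a secreted relative without protease activity, stood at 11.1, 20.1 and 15.7 CPM with the mutant and at 39.2, 56.2 and 42.7 CPM with wild-type H3.3, without overlap. Its log2 fold change was -1.55 (edgeR adjusted p 0.17, SE 0.25). The adjusted p was 1.71e-05 with DESeq2, 0.0101 when all genes with a count entered, and 0.0197 without H3K9M replicate 3 and H3WT replicate 2. It was 0.231 with limma-voom, and 0.0651 to 0.495 when 1 library was left out (edgeR). Adamts9, which cuts versican, averaged 6.04 ± 4.32 CPM with the mutant and 22.8 ± 9.67 CPM with wild-type H3.3 (SD, n = 3 each), a log2 fold change of -1.92 (adjusted p 0.322, edgeR). Adamts14, a procollagen-processing protease, was the 1 gene of the list above 0, with 18.9 ± 7.52 against 8.79 ± 2.57 CPM and a log2 fold change of 1.10 (adjusted p 0.29, edgeR).

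All 10 listed genes of the ADAM family, of which some but not all encode membrane proteases that release proteins from the cell surface, were tested. Their median was -0.06. Adam12 was higher in H3K9M (log2 fold change 0.65) and Adam15 lower (-0.44), each at an unadjusted p under 0.05 (adjusted p 0.354 and 0.245, edgeR). Adam23, named after its values were seen, had a log2 fold change of -1.52 (adjusted p 0.406, edgeR), which was -1.96 (adjusted p 0.0345, edgeR) without H3WT replicate 2 and -1.78 (adjusted p 0.0159, edgeR) when H3K9M replicate 3 was left out as well. It was -0.98 without H3WT replicate 1 (adjusted p 0.687, edgeR), and the adjusted p missed 0.05 in each of the 5 other fits that left out 1 library.

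Of 19 other inhibitors 15 were tested, with a median of -0.27. The 4 with an unadjusted p under 0.05 (edgeR) were all lower in H3K9M. Of all tested genes, 5.77% were lower at that threshold. Serpine2, an inhibitor of thrombin and plasminogen activators, averaged 576.7 ± 198 CPM with the mutant and 1008 ± 138 CPM with wild-type H3.3 (SD, n = 3 each), a log2 fold change of -0.80 (adjusted p 0.275, edgeR). Reck, a membrane-anchored inhibitor of metalloproteinases, stood at 61.4, 45.5 and 66.7 CPM with the mutant and at 69.6, 82.8 and 143.3 CPM with wild-type H3.3. Its log2 fold change of -0.77 (adjusted p 0.354, edgeR) was -0.39 without H3WT replicate 4. Serping1 and Serpina3n had log2 fold changes of -1.57 and -2.10 (adjusted p 0.29 and 0.325, edgeR), and that of Serpina3n was -1.10 without H3WT replicate 2. All 4 thus lay on the other side of 0 from Timp1.

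Among 23 serine, cysteine and astacin protease genes 20 were tested, with a median of 0.07. Htra1, a secreted serine protease that cuts matrix proteins, stood at 463.4, 350.9 and 309.5 CPM with the mutant, and at 175.3, 197.1 and 211.8 CPM with wild-type H3.3. Each H3K9M library lay above each H3WT library. This gave a log2 fold change of 0.94 (edgeR adjusted p 0.17, SE 0.17). The adjusted p was 4.24e-04 with DESeq2 and 0.0218 when all genes with a count entered. It was 0.231 with limma-voom, and 0.088 to 0.495 when 1 library was left out (edgeR). Ctsl, a lysosomal cysteine protease, and Tll1, a procollagen-processing astacin protease, were also higher, with log2 fold changes of 0.51 and 0.95 (adjusted p 0.242 and 0.277, edgeR). Furin, the convertase that activates Mmp14 and ADAMTS proenzymes, stood at 168.7, 158 and 175.7 CPM with the mutant and at 228.2, 237.7 and 184.1 CPM with wild-type H3.3, a log2 fold change of -0.37 (adjusted p 0.337, edgeR). Of 9 clearance, surface and inducer genes 8 were tested, with a median of -0.01 and 0 at an unadjusted p under 0.05 (edgeR).

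Upstream cytokine and transcription genes had a median of -0.19 over 19 tested of 24. Among the cytokines known to induce Mmp3 and the aggrecanases, Il1b had 0 counts in every library and Il1a, Il6 and Tnf did not pass the filter on low counts. Fosl2 and Junb, members of the AP-1 family, lay on opposite sides of 0, each at an unadjusted p under 0.05. Fosl2 averaged 207.8 ± 56.6 CPM with the mutant and 419.6 ± 87.9 CPM with wild-type H3.3, and Junb 95.4 ± 9.86 and 67.9 ± 6.07 CPM (SD, n = 3 each). Their log2 fold changes were -1.01 and 0.49 (adjusted p 0.222 and 0.239, edgeR), and the groups overlapped for neither gene. Fosl2 passed with DESeq2 (adjusted p 0.00432) and without H3K9M replicate 3 and H3WT replicate 2 (adjusted p 0.0159, edgeR). It did not pass with limma-voom (adjusted p 0.252) or when 1 library was left out (adjusted p 0.0835 to 0.495, edgeR). Cebpb (-0.49) and the TNF receptor gene Tnfrsf1a (-0.33), the latter named after its values were seen, were also lower at an unadjusted p under 0.05 (adjusted p 0.38 and 0.403, edgeR).

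All 12 substrate genes were tested, with a median of -0.44. Prg4, which encodes the joint lubricant lubricin, stood at 137.6, 130.9 and 128.9 CPM with the mutant and at 95.6, 68 and 74.6 CPM with wild-type H3.3, and fibronectin (Fn1) 19368 ± 2584 and 14275 ± 473 CPM (SD, n = 3 each). The log2 fold changes were 0.74 and 0.44 (adjusted p 0.18 and 0.382, edgeR). Versican (Vcan) and fibromodulin (Fmod), which are cut by ADAMTS proteases, had log2 fold changes of -0.92 and -0.93 (adjusted p 0.371 and 0.294, edgeR), and that of Vcan was -0.41 without H3WT replicate 1. Col9a1, named after its values were seen, had -1.89 (adjusted p 0.395, edgeR), and -1.16 without H3WT replicate 2. Aggrecan (Acan) itself, the substrate of Adamts4 and Adamts5, had 250.9, 172.3 and 469.7 CPM with the mutant and 136.5, 721.8 and 210 CPM with wild-type H3.3, a log2 fold change of -0.26 (edgeR adjusted p 0.92, SE 0.69).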

How the data were processed

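The deposited table gives the authors' raw counts by gene symbol, with 1 column for each library (unequal totals of whole numbers, so no scaling). HISAT2, featureCounts, DESeq2 and the build mm10 are named in the submitters' processing notes, and annotation and strand setting are not given in the sources used here. Each column matched 1 sample title, and 0 columns belonged to other samples. Groups and replicate numbers came from the titles. The labels do not say whether libraries came from separate animals or cultures, so p-values measure the spread between these libraries, which may be technical. Within groups, the chi-square per gene between replicates was 26.5 to 114, far above sampling noise, so none was a repeated library.

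Counts were fitted in R 4.3.3 with edgeR 4.0.16 (filterByExpr, TMM, robust quasi-likelihood test, genotype as the only term), with Benjamini-Hochberg adjustment over 13761 genes. The standard error is the log2 fold change divided by the square root of F. Log2 CPM used a prior count of 2. For TPM and the offset, a symbol's longest transcript in GENCODE M21 gave its length (94.3% of tested genes). Computations were tested on simulated data. Single values were compared with an exact two-sided permutation test over libraries, which cannot go below 0.1 here. The 7 ratios between members were picked with the values in view.

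The members, lists and alternatives were chosen with earlier results of these data known. Named genes are the members, up to 20 other list genes with the smallest unadjusted p under 0.05, and the gene nearest in profile to each member. Alternatives were DESeq2 1.42.0, limma-voom (limma 3.58.1), DESeq2 size factors, library size alone, 2 other filters, a loess offset (span 0.5) on length and GC content, leaving out each library, and leaving out H3K9M replicate 3 with H3WT replicate 2. Protein motifs were not analysed here.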

Additional observations from a re-analysis of the deposited data

How the results depend on the processing

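No paired analysis was possible because the groups share only replicate number 1. Genes past an adjusted p of 0.05 numbered 0 in the reported fit, 367 with DESeq2, 36 when all genes with a count entered and 302 without H3K9M replicate 3 and H3WT replicate 2, and 0 to 91 when 1 library was left out (91 without H3WT replicate 2, 2 without H3K9M replicate 3). Of the 10 genes, 0 passed, against 1 with DESeq2 (Mmp3) and 2 without that pair (Adamts1 and Adamts5), and 0 to 0 when 1 library was left out. At an unadjusted p under 0.05 the count was 2, against 3 with DESeq2 (with Timp3), 1 with the length and GC offset, 4 without that pair and 2 to 4 with 1 library left out. The shares of all tested genes were 12.2% in the reported fit, 9.62% with DESeq2, 9.24% with the offset and 18.4% without that pair. With 1 library left out they were 8.48% to 17.1%. Groups did not overlap for 2 genes, against 1 with the offset, 6 without that pair and 2 to 4 with 1 library left out. Of all tested genes, 15.8% did not overlap with the offset and 26.8% to 37.4% with 1 library left out. With 1 library left out, this share was highest without H3WT replicate 2 (37.4%). Without the pair 50.2% of all tested genes did not overlap, against 19.4% with 6 libraries. Fewer libraries make overlap less likely, and the pair had been picked by its place on the first principal component. The cause of the higher share was not tested. The sign of 3 genes turned. Mmp2 was 0.023 with library size alone and 0.034 with the offset, and ran from -0.33 to 0.21 when 1 library was left out. Timp2 was 0.024 with library size alone and 0.041 with the offset, and ran from -0.24 to 0.059. Mmp9 ran from -0.83 (without H3K9M replicate 5) to 2.21 (without H3WT replicate 2), was 2.70 without the pair, and could not be tested with 10 counts required in every library. Library size alone moved the median of all genes to 0.05. The other 7 members kept their sign in every fit run, although Mmp14 came to -0.0016 without H3WT replicate 1. Mmp3 and Mmp9, with at most 147 and 41 counts in a library, are limited by depth. Of the list genes named, Prg4, Serpine2, Fmod, Adamts9 and Serpina3n also passed with DESeq2 (adjusted p 0.00925 to 0.0324), and without that pair the last 4 did (edgeR adjusted p 0.0204 to 0.0395).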
